A study of Mus musculus with 6 samples.

Results

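The genes described here encode the proteins of the mitochondrial ribosome, and they were followed across 6 RNA sequencing libraries of activated mouse regulatory T cells. They were chosen by name alone: every protein-coding gene whose Ensembl ID maps to a symbol beginning with Mrpl or Mrps and a number, plus Dap3, with 5 pseudogene rows left out. This gave 79 of the 47069 genes with an Ensembl ID in both deposited tables. In the set, 51 encode proteins of the large subunit, among them Mrps18a and Mrps30 in spite of their names, and 27 encode proteins of the small subunit. The remaining member, Mrps36, carries the family's name but is now known as an adaptor of the oxoglutarate dehydrogenase complex. A mean of at least 1 FPKM (fragments per kilobase of gene length and per M fragments of the library) was reached by 78 members, and Mrpl53 was listed at 0 in every library.

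Mitochondrial ribosomes translate the few mRNAs of the mitochondrial genome, all of which encode subunits of the respiratory chain complexes and of ATP synthase. Their RNAs are made in the mitochondrion, whereas all of their proteins are encoded in the nucleus, made on cytosolic ribosomes and imported. Many of the proteins descend from bacterial ribosomal proteins, and others were added in the mitochondrial lineage. Regulatory T cells rely on mitochondrial respiration, and activated T cells enlarge their mitochondria.

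The libraries came from cells of mice with a Foxp3-driven Cre, which acts in regulatory T cells, and either Foxp3Cre Noc4l fl/fl (cKO) or Foxp3Cre Noc4l+/fl (Het), so both genotypes carried Cre and at least 1 floxed allele. Noc4l is a nucleolar protein whose yeast relative takes part in making the small subunit of the cytosolic ribosome. CD4+GFP+CD62Lhigh cells of lymph nodes and spleen were sorted and then activated with Dynabeads, and the age of the mice is not given in the sources used here. After 48 h there was 1 library of each genotype, cKO 2 and Het 1, and after 72 h there were 2 of each, cKO 2 and 4 and Het 1 and 3. The first deposited table holds the libraries numbered 1 and 2 at both times and the second those numbered 3 and 4, so each table has both genotypes but only the first has both times. The labels do not say that libraries came from separate animals, so p-values measure only the spread between these libraries, which may be technical.

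Noc4l itself went against the genotype labels: it was at 124 FPKM in cKO 2 and 99.1 in Het 1 at 48 h, 81.7 in cKO 2 and 48.8 in Het 1 at 72 h, and 58.1 in cKO 4 and 40.8 in Het 3. The labels do not say which exons are floxed. Genotype names below are therefore those of the labels, and every direction between genotypes is one between libraries so labelled. Estimated depth was 16.45 to 28.76 M fragments, and a member had a median of 733 fragments in a library, so counting error was small (a median SE of 0.076 on the log2 scale for a ratio between cKO 2 and Het 1 at 72 h). The 6 regulatory T cell markers Foxp3, Cd4, Cd3e, Il2ra, Ctla4 and Ikzf2 were detected throughout and summed to 2608 to 3415 FPKM. Much of that sum was Il2ra, at 1142 to 1554 FPKM. Foxp3 ran from 147 FPKM in Het 1 at 72 h to 336 in cKO 4, libraries of different tables. Markers of neutrophils summed to 390 FPKM in cKO 2 and 43.9 in Het 1 at 48 h, 341 in cKO 2 and 38.5 in Het 1 at 72 h, and 75.3 in cKO 4 and 21.5 in Het 3. Outside cKO 2 nearly all of this was Ltf, at 43.5 and 38.2 FPKM in Het 1 at 48 h and 72 h, 75.3 in cKO 4 and 21.4 in Het 3. The markers S100a8, S100a9, Ngp, Camp and Lcn2 were at no more than 0.202 FPKM in those libraries.

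Together the 79 members made up a small share of the RNA. Their FPKM summed to 3561 in cKO 2 and 3271 in Het 1 at 48 h, to 3281 in cKO 2 and 2639 in Het 1 at 72 h, and to 2223 in cKO 4 and 2006 in Het 3, or 0.507%, 0.476%, 0.479%, 0.384%, 0.355% and 0.321% of all FPKM. The library labelled cKO was the higher of each pair. Het 1 at 72 h stood below the other libraries of its table, and both libraries of the second table stood lower still. The second table was below all libraries of the first in 60 members, against 15.2% of all genes tested. The tables were deposited separately, and whether they were processed alike is not given in the sources used here. Any order of levels between libraries of different tables given below carries that limit.

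Levels, which FPKM give per length, ran from 6.71 to 148 FPKM in the mean over 6 libraries. The highest were Mrps21 at 148, Mrpl52 at 117, Mrpl42 at 89.3, Dap3 at 89.2 and Mrpl18 at 74.2 FPKM. Mrps21 and Mrpl18 are counterparts of bacterial proteins, while Mrpl52, Mrpl42 and Dap3, a GTP-binding protein of the small subunit also studied in cell death, have none. The lowest were Mrpl1, the protein of the mobile stalk beside the exit site, at 6.71, Mrpl47 at 7.27, Mrps30 at 7.46, Mrps22 at 7.85 and Mrps27 at 8.61 FPKM. The typical member did not differ much by subunit, with a median of 28.8 FPKM in the large and 25.5 FPKM in the small subunit. Dap3 was also among the steadiest, with 104 FPKM in cKO 2 and 103 in Het 1 at 48 h, 84.2 in cKO 2 and 87.5 in Het 1 at 72 h, and 78.5 in cKO 4 and 78.2 in Het 3. Neither genotype was consistently the higher for it.

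At 72 h most mitochondrial ribosomal protein genes were higher in the libraries labelled cKO than in those labelled Het, by small amounts, and none passed the test. Of 78 members, 69 had a positive and 9 a negative log2 difference in the fit over the 4 libraries with the table as a term. The median difference was 0.24 on the log2(FPKM + 1) scale, with quartiles of 0.17 and 0.42, beside a median of 0.08 over all 12488 genes tested. At a Benjamini-Hochberg adjusted p of 0.05 in limma, 0 members and 0 genes of any kind were called (0.0% in each direction), and the smallest adjusted p of a member was 0.106. At an unadjusted p of 0.05, 11 members (14.1%) were higher, against 10.3% of all genes, and 1 was lower, against 6.99%. The share of members past the unadjusted threshold was thus close to the background, while the direction was positive for 88.5% of members and 61.0% of all genes.

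The shift was larger in one pair of libraries than in the other, a difference that rests on single libraries and was not tested. Between cKO 2 and Het 1, 68 of 78 members were higher (56.0% of all genes), with a median log2 ratio of 0.41 beside 0.06 for all genes. In that pair 19 members were at least 1.5-fold higher (24.4%, against 13.2% of all genes) and 1, Mrpl52, was at least 1.5-fold lower (10.1% of all genes). Between cKO 4 and Het 3, 64 of 78 members were higher (62.1% of all genes), with a median of 0.13 beside 0.08. Only Mrps6, Mrps12 and Mrpl4 were at least 1.5-fold higher there (3.85%, against 9.77% of all genes), and no member was 1.5-fold lower (4.77%). Members higher in both pairs numbered 59 (75.6%, against 42.6% of all genes), and those lower in both were Mrpl14, Mrpl28, Mrpl52, Mrpl58 and Mrps26 (6.41%, against 24.5%). Fits over 3 libraries, which have no table term, gave a members' median of -0.044 without cKO 2 and 0.566 without cKO 4.

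**Figure D1:**
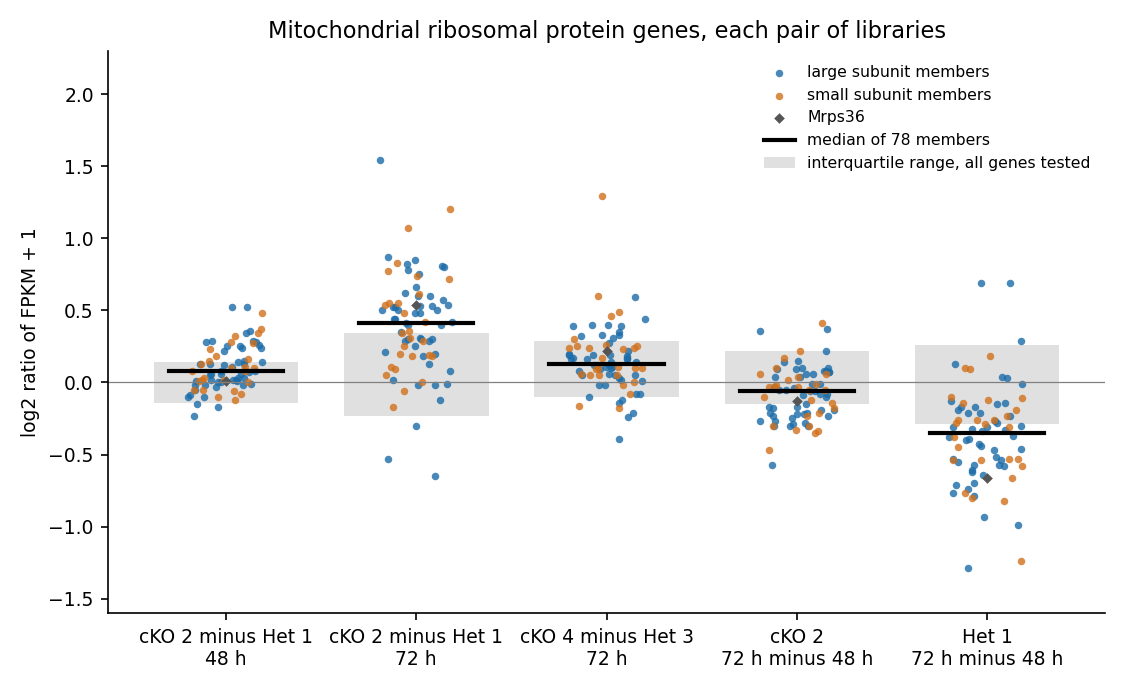
Log2 ratio of FPKM + 1 of 78 members (vertical axis) in each pair of libraries (horizontal axis): cKO over Het at 48 h and in both pairs at 72 h, then 72 h over 48 h in cKO 2 and in Het 1. Points are members coloured by subunit, black bars their medians (0.08, 0.41, 0.13, -0.06 and -0.35) and grey boxes the interquartile range of all genes tested. Members lie mostly above 0 in the 72 h genotype pairs and below 0 over time in Het 1, and the pairs that hold Het 1 at 72 h show the widest shift.

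Seen library by library, few members separated the genotypes at 72 h. Both libraries labelled cKO exceeded both labelled Het in 15 members (19.2%), against 25.0% of all genes. These were Mrpl1, Mrpl4, Mrpl10, Mrpl12, Mrpl24, Mrpl37, Mrpl38, Mrpl39, Mrpl50, Mrps6, Mrps7, Mrps12, Mrps18b, Mrps31 and Mrps34. No member had both below (13.7% of all genes). Across members, the ratios of both pairs had a Pearson r of 0.48 and a Spearman rho of 0.40 (n = 78), beside 0.50 and 0.46 over all genes tested, values that share the gene's length and base composition in each library.

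Most markers of regulatory T cells and of CD8 T and NK cells were higher in cKO in both pairs at 72 h. Those of neutrophils and B cells were all higher in cKO 2 than in Het 1, but mixed or at 0 between cKO 4 and Het 3. Erythroid markers were mixed in both pairs, and the part of markers in the result was not tested. Of the 6 regulatory T cell markers 5 were higher in cKO in both pairs, all but Il2ra, with fitted log2 differences of 0.25 for Foxp3, 0.30 for Cd4, 0.15 for Cd3e, 0.23 for Ctla4 and 0.22 for Ikzf2, beside the members' median of 0.24. Il2ra was at -0.17, and the adjusted p of these 6 lay between 0.320 and 0.549 in limma. All 6 neutrophil markers and all 5 markers of CD8 T and NK cells were higher in cKO 2 than in Het 1. In cKO 4 and Het 3, S100a8, S100a9, Camp and Lcn2 were listed at 0, so that Ltf alone was higher among the neutrophil markers, while of the CD8 T and NK cell list 4 of 5 genes were higher in cKO 4. Those 5 markers summed to 295 FPKM in cKO 2 and 79.8 in Het 1, and to 119 in cKO 4 and 14.1 in Het 3. Most of the cKO 4 sum was Nkg7 at 89.1 FPKM and Gzma at 22.8. In cKO 4 and Het 3, Cd8b1 was at 4.47 and 4.69 FPKM, Cd8a at 2.24 and 1.01, and Klrd1 at 0.453 and 0. B cell markers summed to 83.5 FPKM in cKO 2 and 12.4 in Het 1, and to 8.18 in cKO 4 and 9.11 in Het 3. Erythroid markers summed to 24.5 in cKO 2 and 27.0 in Het 1, and to 1.45 in cKO 4 and 5.89 in Het 3. In bulk RNA, fewer cells that express a gene and less RNA of it per cell cannot be told apart.

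The largest difference by genotype belonged to Mrps6, a small subunit protein with a bacterial counterpart. It was at 46.0 FPKM in cKO 2 and 19.4 in Het 1, and at 31.0 in cKO 4 and 12.1 in Het 3. Both libraries labelled cKO lay above both labelled Het, and the ratio was alike in both pairs (1.20 and 1.29 on the log2 scale). The fitted log2 difference was 1.24 ± 0.13 (SE, n = 2 each), with an adjusted p of 0.106 in limma. Mrps6 was the one member at least 1.5-fold higher in both pairs, as were 4.63% of all genes. At 48 h the libraries were close, with 49.996 FPKM in cKO 2 and 47.3 in Het 1.

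Mrps6 shares exon sequence with another gene. In the annotation used for names, 159 of its 1533 exon bases (10.4%) are also exon bases of Slc5a3, a sodium-coupled myo-inositol transporter read from the same strand, and 305 (19.9%) are exon bases of the predicted gene Gm49711, not analysed here. Slc5a3 had a like pattern: 9.94 FPKM in cKO 2 and 11.4 in Het 1 at 48 h, 10.7 in cKO 2 and 4.85 in Het 1 at 72 h, and 11.3 in cKO 4 and 4.56 in Het 3. Its log2 difference at 72 h was 1.07 ± 0.15 (SE, n = 2 each), with an adjusted p of 0.122 in limma. Since the genes overlap, reads over the shared bases cannot be assigned to either.

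Mrpl38, a large subunit protein with no bacterial counterpart, came next, mostly through 1 pair. It was at 54.9 FPKM in cKO 2 and 18.3 in Het 1, and at 29.0 in cKO 4 and 23.0 in Het 3. The library Het 1 was the lowest of the 4, and the pairs differed widely (1.54 and 0.32 on the log2 scale). The fitted difference of 0.93 ± 0.33 (SE, n = 2 each) had an adjusted p of 0.291 in limma, and the value was 0.48 without cKO 2.

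Mrps18b had the same form. It was at 20.2 FPKM in cKO 2 and 9.12 in Het 1, and at 10.3 in cKO 4 and 9.54 in Het 3, so cKO 2 stood alone above the rest. Its fitted difference was 0.58 ± 0.28 (adjusted p 0.367). Without cKO 2 it was 0.13 and without cKO 4 it was 1.04. Mrps18b is 1 of the mammalian relatives of bacterial S18. Mrps18a, which sits in the large subunit, was likewise highest in cKO 2, at 39.96 FPKM against 27.9 in Het 1, and at 26.7 in cKO 4 and 23.8 in Het 3, with log2 ratios of 0.50 and 0.16. The fitted difference was 0.33 ± 0.15 for Mrps18a and 0.14 ± 0.14 for Mrps18c (adjusted p 0.356 and 0.619). Mrps18c was at 18.9 FPKM in cKO 2 and 16.7 in Het 1, and at 6.94 in cKO 4 and 6.40 in Het 3.

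Mrps7, Mrpl37 and Mrpl11 followed with more even pairs. Mrps7, a protein of the small subunit head, was at 49.3 FPKM in cKO 2 and 28.5 in Het 1, and at 28.9 in cKO 4 and 20.8 in Het 3. Mrpl37, found only in mitochondrial ribosomes, was at 44.6 FPKM in cKO 2 and 25.6 in Het 1, and at 35.9 in cKO 4 and 26.9 in Het 3. For both genes the libraries labelled cKO were the highest of the 4, if narrowly for Mrps7, whose cKO 4 value lay just over that of Het 1. Mrpl11, at the base of the stalk where translation factors bind, was at 13.5 FPKM in cKO 2 and 7.35 in Het 1, and at 7.15 in cKO 4 and 5.01 in Het 3, and its groups overlapped. Their fitted differences were 0.61 ± 0.15, 0.59 ± 0.16 and 0.62 ± 0.17 (SE, n = 2 each), with adjusted p of 0.206, 0.223 and 0.230 in limma. Without cKO 2 the values for Mrps7 and Mrpl11 were 0.24 and 0.20, without Het 3 0.39 and 0.38, and without cKO 4 0.99 and 1.04.

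**Figure D2:**
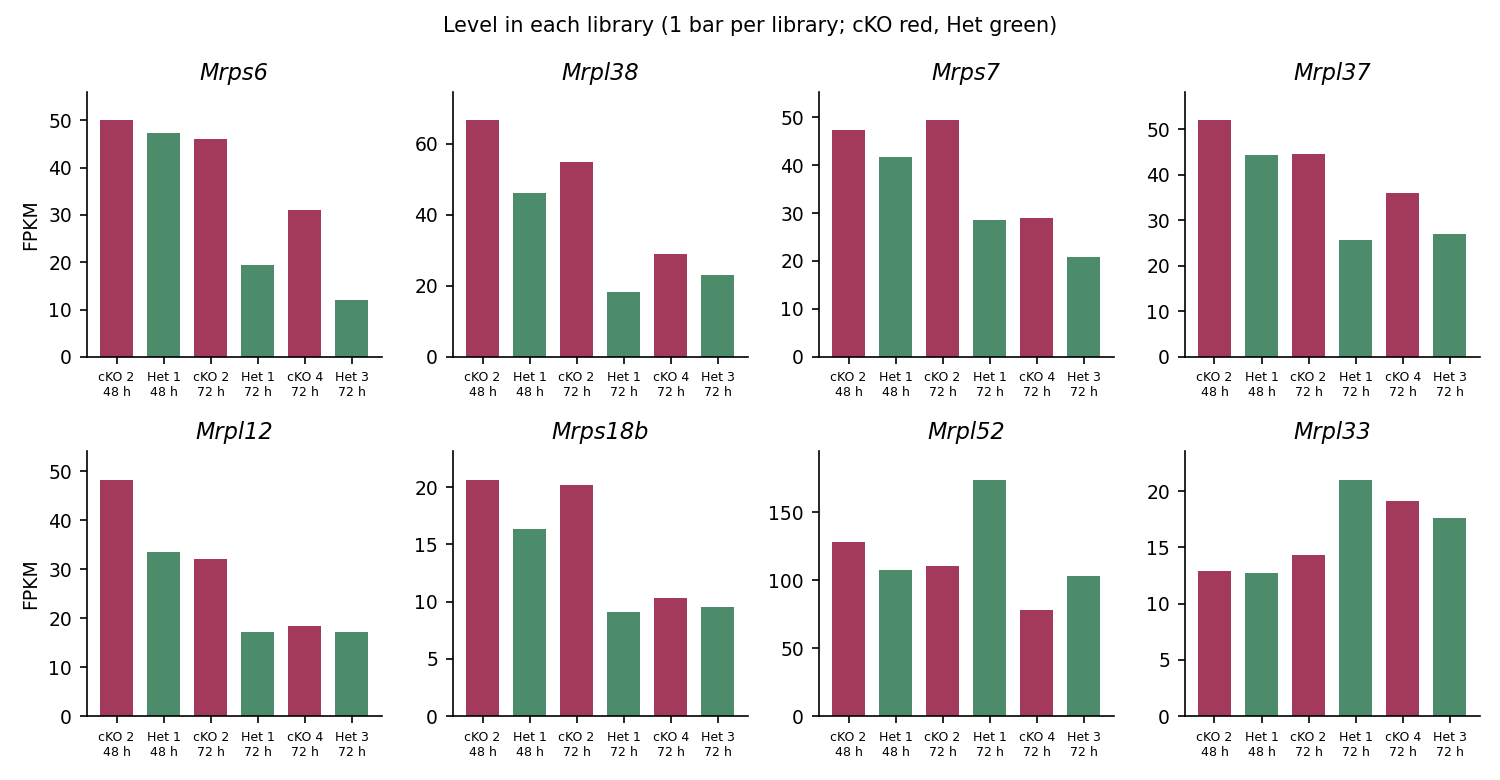
FPKM (vertical axes, from 0) of 8 members in each of the 6 libraries (horizontal axes; 1 bar per library, cKO red and Het green, with no error bar since each bar is 1 library). Mrps6 is higher in cKO than in Het in both 72 h pairs (46.0 against 19.4 and 31.0 against 12.1), Mrpl38 and Mrps18b mainly in the first, and Mrpl52 is lower in both.

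A few members went the other way. Mrpl52, a mitochondria-specific protein of the large subunit, was at 110.3 FPKM in cKO 2 and 174 in Het 1, and at 78.4 in cKO 4 and 103 in Het 3. It was lower in cKO in both pairs, although cKO 2 lay above Het 3. Its fitted difference was -0.52 ± 0.14 (SE, n = 2 each), the lowest of the members, with an adjusted p of 0.219 in limma. The value was -0.15 without Het 1, -0.28 without cKO 4 and -0.90 without Het 3. Mrpl33, a short protein of bacterial descent, was at 14.3 FPKM in cKO 2 and 21.04 in Het 1, and at 19.2 in cKO 4 and 17.6 in Het 3, so the pairs had opposite signs (fitted difference -0.21 ± 0.21). Mrpl14, at the interface of the subunits, Mrpl58, a peptidyl-tRNA hydrolase that frees stalled ribosomes, and Mrps26 had fitted differences of -0.19, -0.18 and -0.18, and Mrpl30 one of -0.05, with adjusted p between 0.502 and 0.846.

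**Figure D3:**
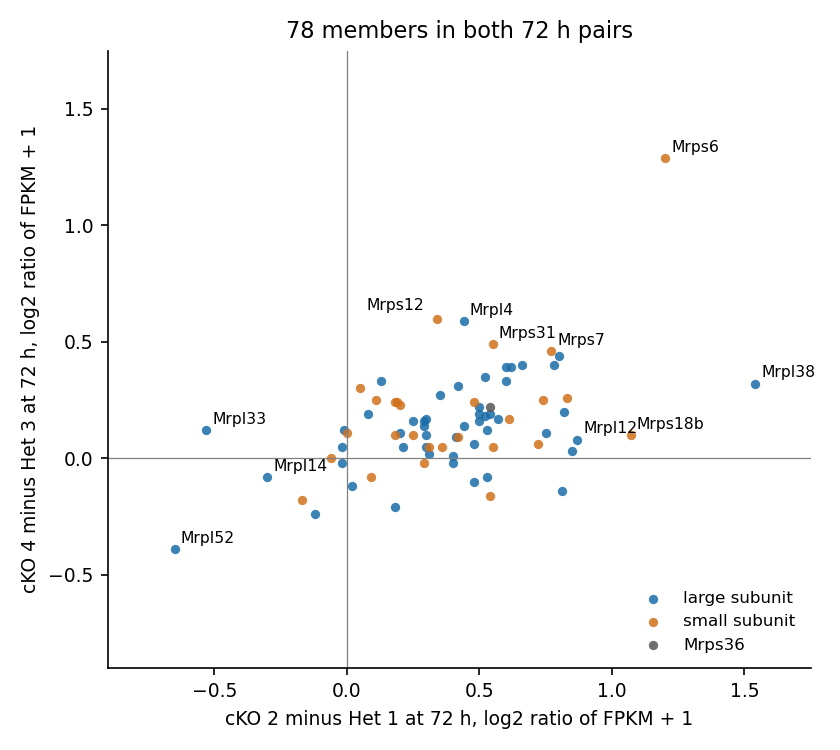
Log2 ratio of FPKM + 1 between cKO 2 and Het 1 (horizontal axis) and between cKO 4 and Het 3 (vertical axis) at 72 h, 1 point per member (78), coloured by subunit. Mrps6 lies far out on both axes (1.20 and 1.29), Mrpl38 on the horizontal axis only (1.54 and 0.32), and Mrpl52 is lowest on both (-0.65 and -0.39).

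Promoter windows of RefSeq (GRCm38.p6, 250 bases before to 50 after the annotated start) were available for 69 of the 79 members. Nuclear genes for mitochondrial proteins are known as frequent targets of the ETS-type factor GABP, of NRF1 and of YY1. The ETS core CCGGAAG, searched on both strands, was present in 25 of 69 windows (36.2%), against 9.12% of 27025 promoters and 20.1% of those whose gene averaged 1 FPKM or more here. The NRF1 core GCATGCG was present in 8 (11.6%, against 3.64% and 7.03%), the YY1 core GATGGCG in 8 (11.6%, against 3.66% and 7.28%), and the E-box CACGTG in 5 (7.25%, against 7.24% and 10.5%). The windows of Mrps6 and Mrpl52, the extremes of the genotype difference, and of Mrps18b and Mrpl33 are shown in lower case with every match to these cores in capitals. None was found in Mrps6 (chr16:92058086-92058385, plus strand). Mrpl52 (chr14:54426659-54426958, plus strand) holds the ETS core at 2 places, read from the opposite strand. Mrps18b (chr17:35916391-35916690, minus strand) holds 3 matches to the NRF1 core, of which 2 overlap on opposite strands in 1 run of capitals, and 1 to the ETS core. Mrpl33 (chr5:31613701-31614000, plus strand) holds 1 of each. A match is a description of letters and not a bound site.
Mrps6: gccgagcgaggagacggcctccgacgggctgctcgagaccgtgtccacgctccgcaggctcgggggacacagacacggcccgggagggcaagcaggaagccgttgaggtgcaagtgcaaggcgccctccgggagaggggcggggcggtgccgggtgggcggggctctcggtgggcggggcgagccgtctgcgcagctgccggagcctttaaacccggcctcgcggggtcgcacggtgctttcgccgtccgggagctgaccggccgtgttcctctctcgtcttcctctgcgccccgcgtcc
Mrpl52: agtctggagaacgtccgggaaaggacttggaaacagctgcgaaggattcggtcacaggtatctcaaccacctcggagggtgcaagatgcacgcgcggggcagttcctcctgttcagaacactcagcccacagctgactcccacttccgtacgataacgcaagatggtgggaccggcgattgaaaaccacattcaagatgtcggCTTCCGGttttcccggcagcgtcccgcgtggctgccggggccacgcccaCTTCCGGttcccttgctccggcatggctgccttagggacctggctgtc
Mrps18b: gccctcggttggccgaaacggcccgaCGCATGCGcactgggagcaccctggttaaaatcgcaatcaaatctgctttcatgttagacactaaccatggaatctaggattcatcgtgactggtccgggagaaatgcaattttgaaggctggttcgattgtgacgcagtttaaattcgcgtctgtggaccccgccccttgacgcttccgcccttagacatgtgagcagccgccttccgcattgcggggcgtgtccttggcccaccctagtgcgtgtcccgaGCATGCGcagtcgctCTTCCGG
Mrpl33: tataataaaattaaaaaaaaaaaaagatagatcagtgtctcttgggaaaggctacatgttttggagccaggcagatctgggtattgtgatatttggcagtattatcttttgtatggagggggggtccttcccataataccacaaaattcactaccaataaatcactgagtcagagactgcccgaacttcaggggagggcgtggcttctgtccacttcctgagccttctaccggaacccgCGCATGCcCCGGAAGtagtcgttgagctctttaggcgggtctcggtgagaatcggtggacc

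Values by subunit and by descent are given side by side, and no difference between these groups was tested. The median log2 difference at 72 h was 0.26 in the large subunit, with 43 of 50 members positive, and 0.21 in the small subunit, with 25 of 27. Members with a bacterial counterpart had a median of 0.30, with 43 of 48 positive, and mitochondria-specific members one of 0.21, with 25 of 29. Between cKO 2 and Het 1 the medians were 0.43 in the large and 0.34 in the small subunit, and between cKO 4 and Het 3 they were 0.13 and 0.11. By descent they were 0.44 with a bacterial counterpart (91.7% higher) and 0.30 without (79.3% higher) between cKO 2 and Het 1, and 0.15 and 0.11 between cKO 4 and Het 3. Over both times they were 0.21 and 0.13. Among proteins at known working sites, Mrpl12, the factor-recruiting stalk protein, had a fitted difference of 0.48 ± 0.24, Mrpl10, which anchors it, 0.29 ± 0.14, Mrps12 of the decoding centre 0.47 ± 0.14, and Mrpl3 beside the peptidyl transferase centre 0.19 ± 0.19. Their adjusted p lay between 0.240 and 0.626 in limma. Mrps36, the member that is no ribosomal subunit, was at 61.6 FPKM in cKO 2 and 42.1 in Het 1, and at 29.9 in cKO 4 and 25.5 in Het 3, which is a difference of 0.38 ± 0.15, within the range of the true subunits.

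At 48 h the genotypes were close, and with 1 library of each there is no test. In cKO 2, 59 of 78 members were higher than in Het 1 (75.6%, against 49.2% of all genes), but by a median log2 ratio of only 0.08, beside 0.00 for all genes, and 37 members lay within 0.1 of equality. None was 1.5-fold higher or lower, as were 3.04% and 2.02% of all genes. The highest ratios were those of Mrpl38 (66.5 FPKM in cKO 2 and 46.0 in Het 1, log2 ratio 0.52), Mrpl12 (48.3 and 33.4 FPKM, 0.52) and Mrps34 (31.8 and 22.5 FPKM, 0.48). The lowest were those of Mrpl1 (7.13 and 8.56 FPKM, -0.23), Mrps30 (-0.17) and Mrpl18 (-0.15), all of which were higher in cKO 2 at 72 h. The library labelled cKO was higher in all 3 pairs for 43 members (55.1%, against 23.5% of all genes). The pair at 48 h and the first at 72 h both set cKO 2 against Het 1, and whether libraries of the same number are independent was not tested. In the fit over all 6 libraries the genotype difference was positive for 71 of 78 members, with a median of 0.20 beside 0.05 for all genes, 13 members higher at an unadjusted p of 0.05 (16.7%, against 8.04%), 0 lower (5.28%), and a smallest adjusted p of 0.343 in limma. No gene passed the adjusted threshold (0.0% in each direction).

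Between 48 h and 72 h of activation most members were lower at the later time, again without a call. The fitted time difference, which comes from the first table, was negative for 71 of 78 members, where the median was -0.22 and the quartiles were -0.33 and -0.11, beside a median of 0.00 for all 12394 genes tested. In limma 0 members passed an adjusted p of 0.05, where 3 genes (0.0242%) were higher and 0 (0.0%) lower, and the smallest adjusted p of a member was 0.369. Without Het 1 at 72 h the members' median was -0.073, and without cKO 2 at 72 h it was -0.327. Markers of other cells and some of regulatory T cells moved over the same libraries, and their part was not tested. Fitted time differences were -0.43 for Foxp3, -0.44 for Ctla4 and -0.27 for Ikzf2, beside -0.0 for Cd3e, 0.07 for Cd4 and 0.09 for Il2ra. The adjusted p of these 6 lay between 0.368 and 0.998 in limma. Markers of CD8 T and NK cells summed to 295 FPKM in cKO 2 at 72 h and 41.7 at 48 h, and to 79.8 in Het 1 at 72 h and 29.7 at 48 h. Cd8a was among the genes called, with a log2 difference of 4.09 ± 0.20 (SE, 6 libraries) and an adjusted p of 0.0186 in limma. B cell markers summed to 83.5 FPKM in cKO 2 at 72 h and 22.6 at 48 h, and to 12.4 in Het 1 at 72 h and 8.79 at 48 h. Erythroid markers summed to 24.5 FPKM in cKO 2 at 72 h and 30.8 at 48 h, and to 27.0 in Het 1 at 72 h and 1.74 at 48 h. For the members, at an unadjusted p of 0.05, 10 were lower (12.8%, against 4.63% of all genes) and 0 higher (6.45%). These were Mrpl2, Mrpl10, Mrpl12, Mrpl22, Mrpl37, Mrpl38, Mrpl42, Mrpl45, Mrps12 and Mrps28.

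The difference over time lay mainly in the libraries labelled Het. From Het 1 at 48 h to Het 1 at 72 h, 69 of 78 members were lower (88.5%, against 52.9% of all genes), with a median log2 ratio of -0.35 beside -0.03, and 17 were at least 1.5-fold lower (21.8%, against 9.98%). In cKO 2, 53 of 78 were lower (67.9%, against 44.9%) and 25 higher (32.1%, against 55.0%), with a median of -0.06 beside 0.03, and none was 1.5-fold higher or lower (6.95% and 3.32% of all genes). Het 1 at 72 h was the lowest library of its table for 66 members (84.6%, against 39.6% of all genes) and the highest for 3 (32.5% of all genes). That library stands on one side of both the wide genotype pair at 72 h and the wide time pair, so these are not independent. Members lower with time in both genotypes numbered 47 (60.3%, against 26.6%), those lower in Het and higher in cKO numbered 22 (28.2%, against 26.3%), and Mrpl33, Mrps16 and Mrps18c were higher in both.

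Among the named members over time, Mrpl12 was at 32.1 FPKM in cKO 2 at 72 h and 48.3 at 48 h, and at 17.1 in Het 1 at 72 h and 33.4 at 48 h. It was lower later in both genotypes, with a fitted difference of -0.75 ± 0.21 (SE, 6 libraries) and an adjusted p of 0.375 in limma. Mrps12 was lower in both as well, at 58.4 FPKM in cKO 2 at 72 h and 81.0 at 48 h, and at 45.8 in Het 1 at 72 h and 68.9 at 48 h (-0.52 ± 0.14, adjusted p 0.369). Mrps28, a small subunit protein related to bacterial S1, was at 22.5 FPKM in cKO 2 at 72 h and 28.8 at 48 h, and at 12.2 in Het 1 at 72 h and 22.1 at 48 h (-0.58 ± 0.18, adjusted p 0.402). These 3 members had the same sign in both genotypes, and the ratio lay further from 0 in Het. In the order given, their log2 ratios were -0.57, -0.47 and -0.35 in cKO, and -0.93, -0.58 and -0.80 in Het.

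Other members with a low fitted value also had the larger decrease in Het. Mrps6 was at 46.0 FPKM in cKO 2 at 72 h and 49.996 at 48 h, but at 19.4 in Het 1 at 72 h and 47.3 at 48 h (-0.68 ± 0.32, adjusted p 0.493). Mrpl38 had log2 ratios of -0.27 in cKO and -1.29 in Het, Mrpl42 of -0.30 and -0.99, and Mrps27, a pentatricopeptide repeat protein of the small subunit, of -0.23 and -0.82. Their fitted differences were -0.78, -0.64 and -0.53, with adjusted p of 0.450, 0.400 and 0.456. For each of them the sign was the same in both genotypes and the ratio lay further from 0 in Het.

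The highest fitted time differences were those of Mrpl33 (0.41 ± 0.20), Mrps18c (0.30 ± 0.14) and Mrpl52 (0.23 ± 0.23), followed by Mrpl14, Mrps16 and Mrps30 at 0.10, 0.06 and 0.04, with adjusted p between 0.501 and 0.960. Mrpl33 and Mrpl52 were the members at least 1.5-fold higher over time in Het (2.56%, against 11.1% of all genes), each with a log2 ratio of 0.69, beside 0.14 and -0.22 in cKO. Mrpl52 was at 110.3 FPKM in cKO 2 at 72 h and 128 at 48 h, and at 174 in Het 1 at 72 h and 108 at 48 h. In Het it was 1 of 9 members higher at 72 h than at 48 h (47.0% of all genes), with Mrpl14, Mrpl33, Mrpl43, Mrpl57, Mrpl58, Mrps16, Mrps18c and Mrps26.

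Whether the genotype difference differs between 72 h and 48 h was tested by an interaction term, and no member passed. Its fitted value was positive for 60 of 78 members, with a median of 0.19 beside 0.09 for all genes, and the smallest adjusted p was 0.744 in limma. The direction of the median rested on single libraries, since it was -0.136 without cKO 2 at 72 h and -0.014 without Het 3, in fits with no table term. At an unadjusted p of 0.05, Mrps6 was higher (1.17 ± 0.22, adjusted p 0.744; 3.43% of all genes were higher) and Mrpl52 lower (-0.77 ± 0.23, adjusted p 0.847; 2.28% of all genes were lower), while 0.0% of genes passed the adjusted threshold in each direction. In the first table the log2 change over time was greater in cKO 2 than in Het 1 for 63 members (80.8%, against 55.7% of all genes) and lower for 15 (44.3% of all genes), which is the same quantity as the larger genotype ratio at 72 h than at 48 h.

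Genes that work with the mitochondrial ribosome were read from the same fits, and again none was called after adjustment. Over all genes tested at 72 h, 61.0% were positive and the median was 0.08. The 4 subunits with other names had a median log2 difference of 0.32 at 72 h. Chchd1 of the small subunit was at 54.4 FPKM in cKO 2 and 41.5 in Het 1, and at 38.2 in cKO 4 and 29.4 in Het 3 (0.37 ± 0.12, adjusted p 0.269). Aurkaip1 was nearly level, at 91.3 in cKO 2 and 95.8 in Het 1, and at 75.13 in cKO 4 and 75.03 in Het 3. Of 25 assembly factors 22 were positive, with a median of 0.21, led by Fastkd2 (0.78 ± 0.22) and the rRNA methyltransferase Nsun4 (0.64 ± 0.13), while Rpusd4 and Ngrn were at -0.06 and -0.03. Nsun4 was at 25.3 FPKM in cKO 2 and 15.1 in Het 1, and at 28.7 in cKO 4 and 19.1 in Het 3, with an adjusted p of 0.179 in limma.

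Of 14 translation factors and related genes 12 were positive (61.0% of all genes), with a median of 0.34. Taco1, an activator of cytochrome oxidase translation, was at 0.47 and the elongation factor Gfm1 at 0.46. Oxa1l was at -0.03 and the release factor Mtrf1l at -0.16. The 17 mitochondrial aminoacyl-tRNA synthetases had a median of 0.14 and no common direction in the second pair, where the median was -0.06, against 0.29 between cKO 2 and Het 1. Fars2 and Rars2 were highest at 0.48 and 0.39, and Lars2 was lowest at -0.82. For Rars2 and Lars2 this came mainly from 1 pair. Their log2 ratios were 0.73 and -0.12 between cKO 2 and Het 1, and 0.04 and -1.51 between cKO 4 and Het 3. The 8 genes of mitochondrial transcription and DNA maintenance had a median of 0.08, close to that of all genes, with Tfb2m at 0.38, Ssbp1 at 0.31, Polg at -0.13 and Tfam, which packages the mitochondrial genome, at -0.16.

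The messages that the mitochondrial ribosome translates were also higher in the libraries labelled cKO at 72 h, and their difference from the ribosomal protein genes was not tested. Of the 13 mitochondrially encoded mRNAs 12 were tested, and all had a positive log2 difference at 72 h (61.0% of all genes), with a median of 0.68. At an unadjusted p of 0.05, 8 of them were higher (10.3% of all genes), and none passed after adjustment (smallest adjusted p 0.226 in limma). Their median log2 ratio was 1.03 between cKO 2 and Het 1 and 0.39 between cKO 4 and Het 3, and from 48 h to 72 h it was -0.06 in cKO 2 and -0.93 in Het 1. For example, mt-Nd2, a subunit of complex I, was at 747 FPKM in cKO 2 and 341 in Het 1, and at 441 in cKO 4 and 327 in Het 3. The highest differences were those of mt-Atp8 and mt-Atp6 (0.84 and 0.82) and the lowest those of mt-Co1 and mt-Co3 (0.31 and 0.16). Some of these mRNAs were listed at very low values, as mt-Co3 was at 0.892 to 1.53 FPKM in the 6 libraries beside mt-Co1 at 2666 to 4172, and mt-Nd4l at 0. Likewise mt-Co2 was at 0.489 to 6.31 FPKM. In cKO 4 and Het 3, mt-Atp6 was at 1.34 and 0.543 FPKM and mt-Nd3 at 2.97 and 2.13. Of these low genes mt-Co2, mt-Atp6 and mt-Nd3 are among the 8 past the unadjusted threshold. Nuclear copies of mitochondrial DNA can take such reads, so levels between these genes and the differences of the low ones are uncertain.

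Proteins of the cytosolic ribosome stood near 0 in median. The 79 cytosolic ribosomal protein genes had a median log2 difference of 0.01 at 72 h, with 41 positive and 38 negative, and medians of -0.02 between cKO 2 and Het 1 and 0.04 between cKO 4 and Het 3. At 48 h, 63 of the 79 were higher in cKO 2 than in Het 1 (79.7%), with a median log2 ratio of 0.09. That was much like the 75.6% and 0.08 of the mitochondrial ribosomal protein genes. Over time the median of the cytosolic list was -0.18 in cKO 2 and -0.09 in Het 1, while that of the mitochondrial ribosomal protein genes was -0.06 in cKO 2 and -0.35 in Het 1. The difference between these lists was not tested. The extremes at 72 h were Rpl35 at 0.60 and Rpl24 at 0.55, and Rpl12 at -1.80 and Rpl29 at -0.54. The value of Rpl12 came from 1 pair, with log2 ratios of -0.04 between cKO 2 and Het 1 and -3.56 between cKO 4 and Het 3. Many cytosolic ribosomal protein genes have near-identical pseudogenes, so that single values such as that of Rpl24 (0.634 to 2.08 FPKM) are uncertain.

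**Figure D4:**
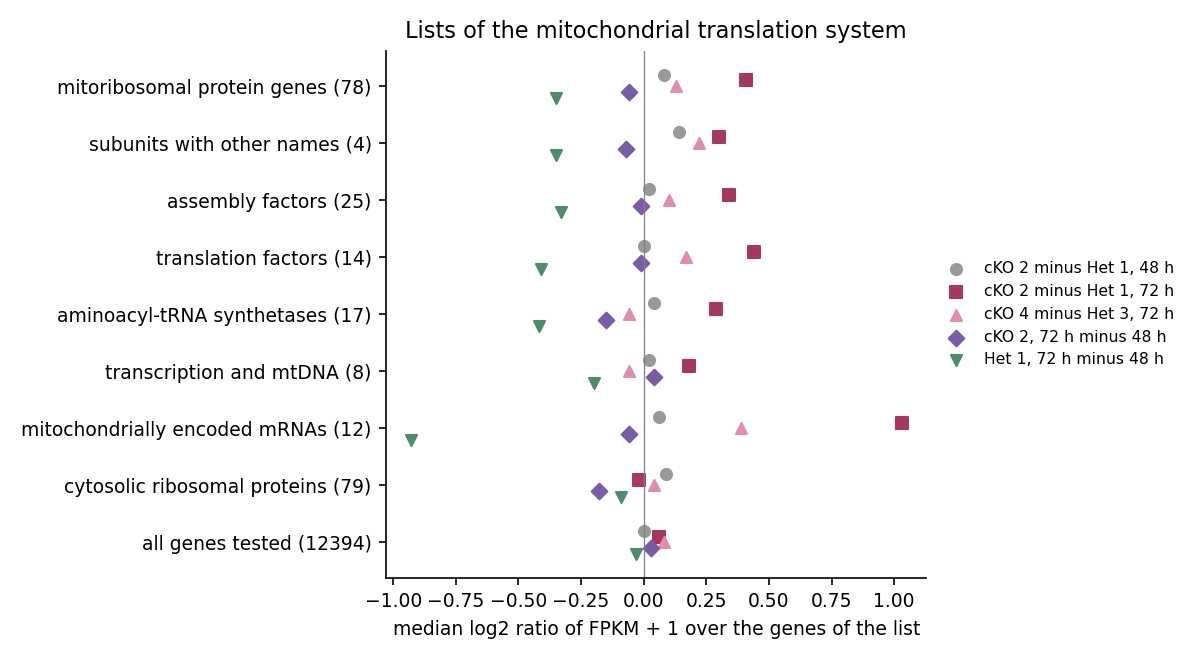
Median log2 ratio of FPKM + 1 (horizontal axis) of each list of the mitochondrial translation system, of cytosolic ribosomal proteins and of all genes tested (rows, with the number of genes tested), 1 symbol for each pair of libraries. Mitochondrially encoded mRNAs have the widest spread (1.03 between cKO 2 and Het 1 at 72 h, -0.93 over time in Het 1), and the symbols of cytosolic ribosomal proteins lie between -0.18 and 0.09.

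Overlap with other genes bears on several members, because the strand setting of the counting is not given in the sources used here. Exons of 34 members overlap those of another gene, and in 17 the overlap covers at least 10% of the member's exon bases. The widest overlap is that of Mrpl53, where 88.0% of the exon bases are shared with the predicted gene Gm42688, itself at no more than 0.168 FPKM, so the value of 0 for Mrpl53 cannot be read as absence. Mrps25 shares 69.8% with Nr2c2, Mrps34 63.4% with Mapk8ip3, Mrpl19 36.0% with Gcfc2, Mrpl43 33.4% with Twnk and Mrps18b 30.5% with the antisense transcript Gm16279, all on opposite strands, and their values are uncertain to that extent. Mrps34 also shares 37.0% with Nme3 on the same strand, and Nme3 was listed at 0 in all 6 libraries. Gm16279 stood at 0.307 to 0.603 FPKM, far below Mrps18b. In the 62 members without such an overlap, a set formed after the values were seen, the medians were close to those of all members, at 0.24 for genotype at 72 h and -0.20 for time.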

How the data were processed

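RNA was sequenced from 6 libraries made with the SMART-Seq v4 kit, per the labels' protocols. The authors deposited FPKM in 2 tables. Tools listed in the submitters' processing notes are TopHat2 2.0.12, Bowtie2 2.2.3 and HTSeq 0.6.1, with mouse build mm9. For the annotation, the strandedness and the step each tool served, no detail is given in the sources used here. One passage of the labels gives both genotypes the same allele pair, and each library's genotype was taken from its own label. Of 47347 rows shared by the tables, 278 had no Ensembl ID and were left out, and 46488 of the remaining IDs matched a symbol. Names and exon overlaps came from a GRCm38 annotation, so no coordinates of the files' rows are printed.

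Depth was estimated from the steps of low FPKM values: with annotated lengths, 86.5% to 87.3% came to whole fragments (within 0.02), against 3.87% to 4.25% when lengths were scrambled. No count test was run, and intervals from these numbers cover counting error only. Values were compared as log2(FPKM + 1), which understates changes of low genes, for genes averaging 1 FPKM or more in the fit. Models were fitted to the whole table with limma 3.58.1 in R 4.3.3 (variances with a trend, Benjamini-Hochberg over all genes, threshold 0.05), with the table as a term: genotype at 72 h (4 libraries, 1 residual degree of freedom), genotype and time over 6 libraries (2), and their interaction (1). The scripts were tested on simulated data. Single pairs of libraries have no test, and called there means at least 1.5-fold. Tables and figures used Python 3.11.15, pandas 2.3.3, numpy 2.4.6 and matplotlib 3.10.9.

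The members, the lists of related genes, the markers and the motif cores were chosen with earlier results of these data known, and nothing is supported by that choice. Named members are the 5 highest and 5 lowest mean levels, the 6 highest and 6 lowest fitted differences for genotype at 72 h and for time, the 3 highest and 3 lowest ratios at 48 h, and 10 fixed members. In each related list the 2 highest and 2 lowest at 72 h were named, and a few others where a count of 5 or fewer or an overlap concerned them. A gene that this rule would name is not reported here.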

Additional observations from a re-analysis of the deposited data

How the results depend on the processing

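The median differences of the members kept their direction under other pseudocounts (0.1 and 5), filters, TPM, quantile normalization, median centring, no table term and no variance trend. Over the alternatives that left out no single library, the median ranged over 0.15 to 0.253 for genotype at 72 h, against 0.24. It ranged over 0.14 to 0.21 for genotype over both times, against 0.20, and -0.248 to -0.198 for time, against -0.22. For the interaction the range was 0.101 to 0.219, against 0.19. Median centring moved the median of all genes at 72 h to -0.01 from 0.08 and that of the members to 0.15. Without the filter on low values 8 genes passed the adjusted threshold at 72 h, against 0. Without the table term 4 members stood at an unadjusted p of 0.05 at 72 h and 5 over both times, against 12 and 13. For time, 1 gene passed with a pseudocount of 5, 0 without a filter and 0 with a replicate block, against 3. Members at an unadjusted p of 0.05 for time numbered 16 after median centring, 5 with the replicate block and 5 in the first table alone, against 10. For the interaction there was 1 without the variance trend, against 2. Among the 62 members without a wide exon overlap, an alternative chosen after seeing the data, 8 stood at that threshold over both times and 1 for the interaction. Mrps30 over time was -0.01 after quantile normalization, against 0.04.

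Members past 1.5-fold in either direction numbered 20 between cKO 2 and Het 1 at 72 h, and 11 with a pseudocount of 5. Between cKO 4 and Het 3 they numbered 3, and 1 each with a pseudocount of 5, quantile normalization and median centring. Over time they numbered 0 in cKO, and 1 each with a pseudocount of 0.1, quantile normalization and median centring, and 19 in Het, and 12 with a pseudocount of 5. At a log2 ratio of 0.322 in place of 0.585 there were 8 at 48 h, 47 and 14 in the 72 h pairs in the same order, 8 over time in cKO and 43 in Het.

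Values were also computed without each library in turn. At 72 h, where the fit over 3 libraries has no table term, the lone library of 1 genotype is assumed to vary like those of the other, and tables scaled separately are set together, the members' median ranged over -0.044 to 0.566 (the lowest without cKO 2, 0.448 without Het 1, the highest without cKO 4), members at an unadjusted p of 0.05 over 0 to 32, members passing adjustment over 0 to 2 (Mrps6 and Mrpl38 without cKO 4, adjusted p 0.0316 and 0.0228, where only the Het libraries of the different tables supply the spread) and genes over 0 to 608 (223 without cKO 2, 608 without cKO 4). Over both times the ranges were 0.104 to 0.258, 5 to 12, and 0 to 7 genes. For time they were -0.327 to -0.073 (the lowest without cKO 2 at 72 h, the highest without Het 1 at 72 h), 0 to 29, and 0 to 4 genes. For the interaction they were -0.136 to 0.519, 0 to 2, and 0 to 18 genes, and leaving out a 48 h library could not be fitted. At 72 h Mrpl38 ranged over 0.48 to 1.38, Mrps18b over 0.13 to 1.04, Mrpl52 over -0.90 to -0.15, Mrpl14 over -0.67 to 0.29 (0.18 without cKO 4), Mrpl58 over -0.39 to 0.03 and Mrpl30 over -0.38 to 0.28 (0.21 without Het 1), and for time Mrpl52 over -0.15 to 0.62, Mrpl14 over -0.05 to 0.25, Mrps16 over -0.01 to 0.14 and Mrps30 over -0.23 to 0.30. The cause of these moves was not tested, though such fits have fewer libraries.

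Replicate numbers are shared only between the times of 1 genotype, and with 1 library of each genotype at 48 h their pairing of libraries could not be tested. High S100a8 (81.2 FPKM at 48 h and 75.9 at 72 h) and S100a9 (110 and 90.7) were found only in the cKO 2 libraries. In all others these genes stood at no more than 0.202 FPKM. Whether the cKO 2 libraries share a source of cells was not tested, and the fits over 6 libraries took them as separate. Genotype is nested in the replicate number, so no block was fitted for it. By the estimated depth, 76 members had at least 100 fragments in every library, so counting error alone was small for most members. The small number of libraries is a limit, and what else limits the result was not tested.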
